A study of Sus scrofa with 12 samples.

Results

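Metallothionein and 7 enzymes or carriers of antioxidant defence are described here across pig livers: MT1A, SOD1, SOD2, CAT, PRDX6, GPX1, GPX4 and TXN. The members were every probe set of the array annotated with one of these 8 symbols and no other, which gave 10 probe sets of 24123 and 8 genes of 6765 with a symbol. GPX4 and TXN had 2 probe sets each, and the other genes 1 each. A further probe set, annotated to both MT1A and MT3, falls outside the rule and is described with the metallothioneins. All 10 passed the filter on low signals and were tested among 15999 probe sets.

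Metallothioneins are small cysteine-rich proteins that bind zinc and copper and are strongly expressed in liver, where zinc, glucocorticoids and inflammatory signals are known to induce their transcription. Superoxide dismutases turn superoxide into hydrogen peroxide, and catalase, peroxiredoxins and glutathione peroxidases then remove hydrogen peroxide or lipid peroxides. Thioredoxin carries the electrons that reduce several peroxiredoxins and other oxidised proteins.

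Liver RNA came from 12 adult German Landrace pigs, with 1 Affymetrix porcine array per animal, and the study asked how psychosocial stress is reflected in liver transcripts. The animals were labelled for stress response and for aggressiveness, and the 4 combinations were high stress response with high aggressiveness, high stress response with low aggressiveness, low stress response with high aggressiveness, and low stress response with low aggressiveness. Each combination held 3 animals, 2 males and 1 female, so that 6 animals stood at each level of a factor. All animals shared breed and tissue, the labels name no drug, diet or genetic change, and they do not say how either trait was scored. In the animal names the first word gives stress response and the second aggressiveness, and high-low 3 is replicate 3 of its combination. The females were high-high 3, high-low 1, low-high 3 and low-low 1. Each sample is taken as 1 animal, since the design text counts pigs, and p-values measure the spread between these animals only.

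Signals are given as deposited, as a linear intensity whose 2% trimmed mean was 500.2 on every array. A signal can be compared between animals for 1 probe set but not between probe sets, and precision is limited by there being 1 array per animal. The tissue label was checked with 13 hepatocyte markers, such as albumin (ALB) and transferrin (TF), of which 11 were measured and the dimmest, APOB, averaged 27380 with high and 27920 with low stress response. Their summed signal ran between 407700 and 476200 in animals with high stress response, and between 362200 and 562800 in those with low stress response. The array of high-high 3 had the lowest median correlation with the others, 0.9527, followed closely by high-low 3 (0.9567), low-high 3 (0.9572) and low-low 3 (0.9583). For some results, but not all, the values without the first 2 are given as well. In whole liver, fewer cells of a type and less RNA per cell cannot be told apart.

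No member passed the test in any comparison, with limma on log2(signal + 16) and Benjamini-Hochberg adjustment over all 15999 probe sets. For stress response the test called 0% of all probe sets, and the smallest adjusted p of any was 0.339. At an unadjusted p under 0.05, 2 of the 10 members were counted, PRDX6 and the second probe set of GPX4, against 8.16% of all probe sets. Over the 8 genes, 4 log2 fold changes lay above 0 and 4 below, with a median of 0.00 beside 0.03 over all probe sets. The members thus had no shared direction for stress response.

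**Figure D1:**
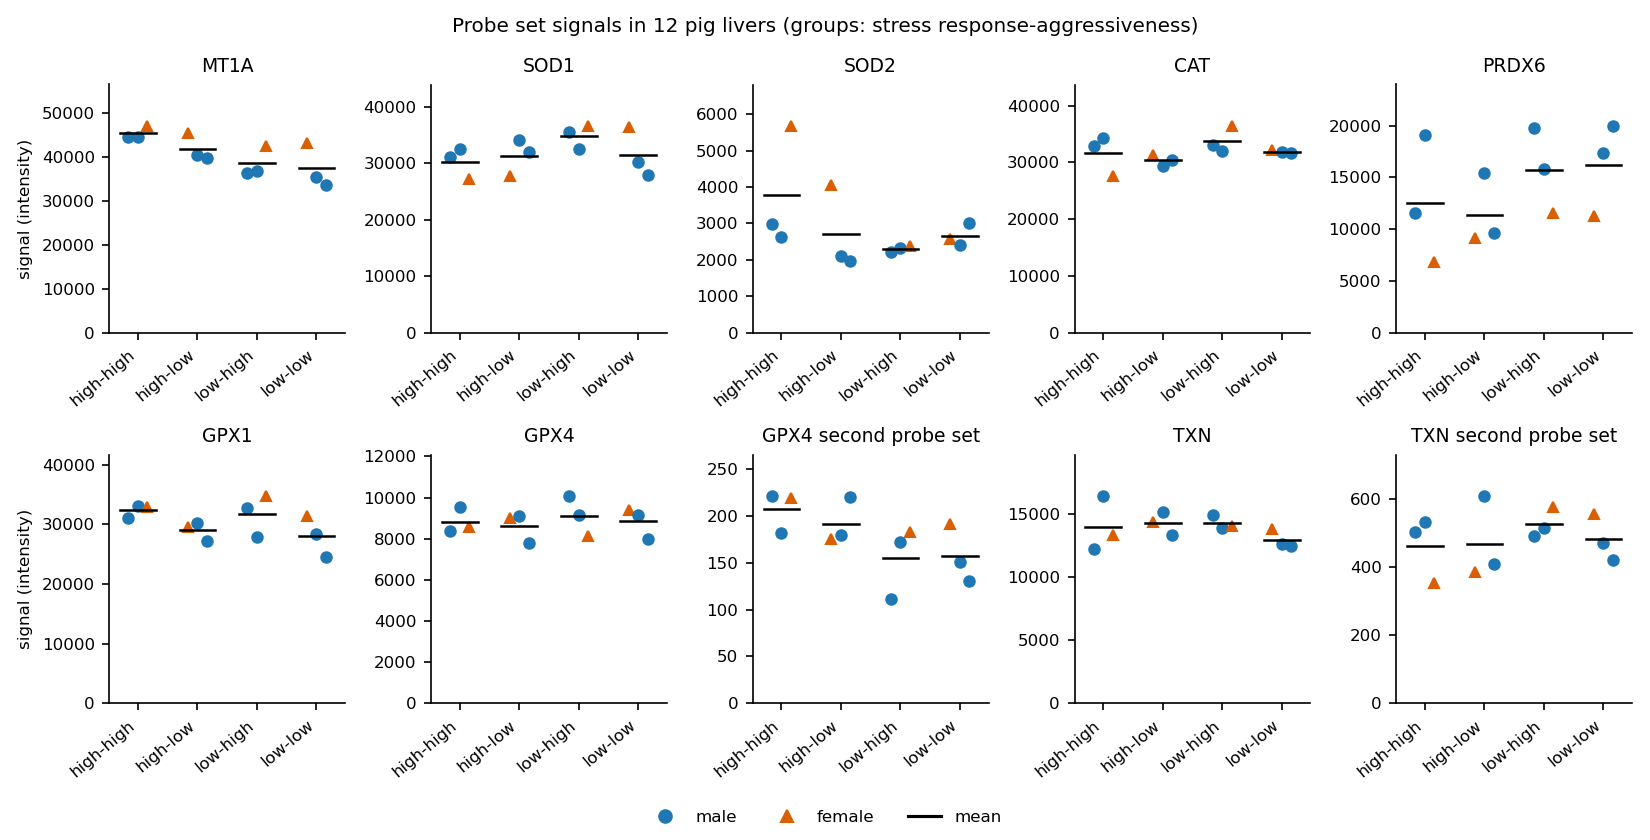
Signal (linear intensity, each axis from 0) of the 10 member probe sets in the 12 animals, by stress response and aggressiveness in that order. Circles are males, triangles females and bars group means of 3 animals. MT1A of the 3 high-high animals lies at 44490 to 47110, above the 3 low-high animals at 36470 to 42500, whereas GPX4 and TXN overlap in most groups.

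MT1A (NCBI gene 397417), the metallothionein of this set, had signals of 44490, 44630 and 47110 in the high-high livers and of 45370, 40520 and 39850 in the high-low livers. The signals were 36470, 36810 and 42500 in the low-high livers and 43280, 35490 and 33740 in the low-low livers. All 6 pigs of the high stress response group exceeded the low group's median, and the 2 females with low stress response were the animals that overlapped. MT1A averaged 43660 ± 2860 with high and 38050 ± 3910 with low stress response (SD, n = 6 each). The log2 fold change was 0.20 ± 0.09 (SE), or 1.15-fold, with a limma adjusted p of 0.618 and an unadjusted p of 0.0549. An exact permutation test of the means, two-sided, gave p = 0.026, and 0.208 after adjustment over the 30 tests of 10 probe sets in 3 comparisons.

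The order of the 4 group means of MT1A was high-high at 45410 ± 1470, high-low at 41910 ± 3010, low-high at 38590 ± 3390 and low-low at 37500 ± 5080 (SD, n = 3 each). The animals of each neighbouring pair in that order overlapped. Within males the 4 animals with high stress response had 39850 to 44630 and the 4 with low stress response 33740 to 36810, with no overlap. Within females the values were 47110 and 45370 with high stress response, and 42500 and 43280 with low stress response, again without overlap. MT1A was the 1 member of 10 whose signals were apart in the same direction in both sexes, a pattern found in 1.08% of all probe sets. The comparison within each sex was not among those planned, so this share is a description and no test. Males averaged 39000 ± 4070 (n = 8) and females 44560 ± 2090 (SD, n = 4), with a log2 fold change of -0.20 ± 0.10 and a limma adjusted p of 0.94, and -0.09 after quantile normalization. The MT1A signal was 61.3 to 84.1% of the highest signal on its array, so a ceiling of the scanner could understate differences, and this was not tested. Its probe set is of the class marked by the array's design as matching several transcripts of a family, so related metallothioneins may add to it.

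MT1A lies in the RefSeq annotation (Sscrofa11.1) in a row of metallothionein genes that runs MT4, MT3, MT-2B, MT1D, 2 unnamed loci and MT1A. Of these, MT3 and MT-2B also had probe sets of their own. MT-2B, which was looked at only after the annotation and values were seen, had signals of 31910, 33740 and 29920 in high-high livers and 28610, 26430 and 30100 in high-low livers. The low-high livers had 25170, 28660 and 22820 and the low-low livers 27860, 27110 and 25410. The 6 animals with high stress response averaged 30120 ± 2540 and the 6 with low stress response 26170 ± 2130 (SD), with overlap. The log2 fold change was 0.20 ± 0.11 and the limma adjusted p 0.665. An exact permutation test gave p = 0.0195, without adjustment and for a probe set picked after its values were seen. Across the 12 animals the log2 signals of MT1A and MT-2B correlated at r = 0.478, and those of MT1A and MT3 at 0.305, a description over probe sets that may share transcripts. MT3, known mainly from brain, ranged between 239.9 and 882 with high and between 188.7 and 772.3 with low stress response, with overlap. The log2 fold change of MT3 was 0.46 ± 0.37 with a limma adjusted p of 0.789. Between the 3 high-high and the 3 low-high animals neither MT-2B nor MT3 overlapped, as was so for 10.8% of all probe sets. The dim probe set annotated to both MT1A and MT3 had 14.57 to 108.3 with high and 61.59 to 157.7 with low stress response, with overlap. Its log2 fold change was -0.44 ± 0.33 with a limma adjusted p of 0.774, below 0 where the probe sets of MT1A, MT-2B and MT3 lay above 0.

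SOD1 (NCBI gene 397036), the copper-zinc superoxide dismutase of the cytosol, had 31100, 32480 and 27270 in high-high livers and 27690, 34030 and 31910 in high-low livers. It had 35510, 32540 and 36600 in low-high livers and 36390, 30190 and 27870 in low-low livers. Among animals with high aggressiveness the stress response groups did not overlap, whereas among those with low aggressiveness they did. The overall log2 fold change for stress response was -0.11 ± 0.12, and its 95% interval of -0.37 to 0.15 covered 0. The 4 males with high stress response, at 31100 to 34030, lay inside the range of the 4 with low stress response, at 27870 to 35510. The lowest and the highest SOD1 signals both belonged to females: 27270 and 27690 with high stress response, against 36600 and 36390 with low stress response.

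SOD2 (NCBI gene 100154319), the manganese superoxide dismutase of mitochondria and a gene known to be induced by inflammatory signals, had 2994, 2631 and 5678 in high-high livers and 4050, 2099 and 1979 in high-low livers. Signals were 2207, 2327 and 2387 in low-high livers and 2557, 2394 and 3003 in low-low livers. The 2 highest values were those of the 2 females with high stress response, and the remaining 10 animals lay between 1979 and 3003. In falling order the group means were 3768 ± 1660 in high-high, 2709 ± 1160 in high-low, 2651 ± 315 in low-low and 2307 ± 91.8 in low-high livers (SD, n = 3 each). Each neighbouring pair lay within the SD of the wider group, except low-low and low-high, whose 3 animals each did not overlap. For stress response the log2 fold change was 0.29 ± 0.20 with a limma adjusted p of 0.734, and it was 0.14 without the high-high female and -0.04 in males alone.

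Within the animals with high aggressiveness, SOD2 had a log2 fold change for stress response of 0.62 ± 0.26, unadjusted p = 0.0353 and a limma adjusted p of 0.806. It was the 1 member of 10 under an unadjusted p of 0.05 there, against 6.13% of all probe sets, while 0% passed after adjustment. MT1A, SOD1 and SOD2 did not overlap between the 3 high-high and the 3 low-high animals, MT1A and SOD2 above and SOD1 below. That is 3 of 10 members, against 10.8% of all probe sets, and an exact test of 3 against 3 animals cannot give a p below 0.1. Within low aggressiveness, 0 of 10 members were counted at the unadjusted threshold, against 5.12% of all probe sets, with 0% passing after adjustment, and CAT was the 1 of 10 that did not overlap, again beside 10.8%. The difference between these settings, which is the interaction of stress response with aggressiveness, was 0.66 ± 0.36 for SOD2 with a limma adjusted p of 0.999. It was 0.43 without high-high 3 and 0.27 without high-high 3 and high-low 3. For the interaction 0 of 10 members were counted, against 3.87% of all probe sets, and 0% passed after adjustment.

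**Figure D2:**
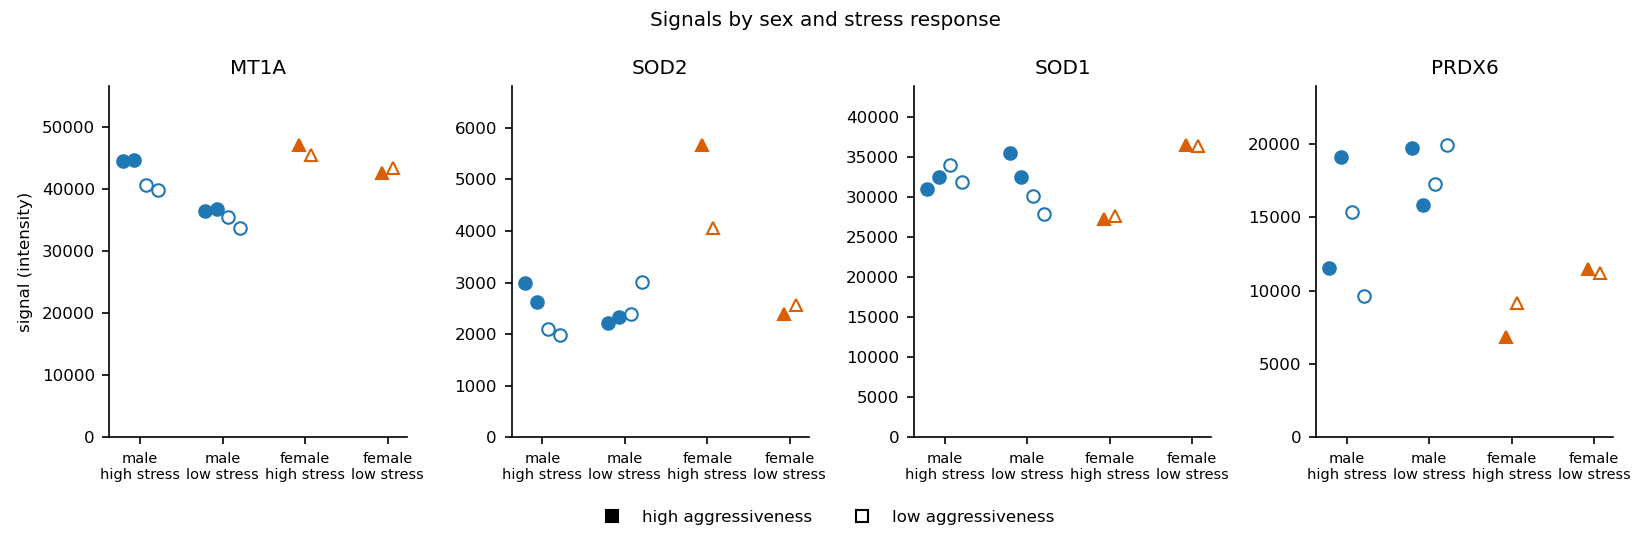
Signal (linear intensity, axis from 0) of MT1A, SOD2, SOD1 and PRDX6 by sex and stress response. Filled symbols mark high and open symbols low aggressiveness. Both females with high stress response lie above all other animals for SOD2 (5678 and 4050) and below all other animals for SOD1 (27270 and 27690), and MT1A is apart in both sexes.

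The pattern in females led to a test that was added after the values were seen, with a term for stress response by sex. In males the log2 fold change of SOD2 for stress response was -0.04 ± 0.18 (limma adjusted p = 0.99), and in females it was 0.95 ± 0.26 (limma unadjusted p = 0.00369, adjusted p = 0.342). The difference, males minus females, was -0.995 ± 0.312 with an unadjusted p of 0.00936 and a limma adjusted p of 0.716. SOD1 had 0.04 ± 0.13 in males and -0.41 ± 0.18 in females, a difference of 0.45 ± 0.22 with a limma adjusted p of 0.796. The second TXN probe set had 0.10 ± 0.15 in males and -0.60 ± 0.21 in females, a difference of 0.70 ± 0.26 with a limma adjusted p of 0.747. Counted at the unadjusted threshold were 2 of 10 members for the difference between the sexes, against 6.41% of all probe sets, 1 of 10 in males against 5.13%, and 3 of 10 in females against 9.06%. After adjustment 0% passed for the difference, 0% in males and 0.00625% in females, none of them a member. The females number 2 at each level of stress response, and 1 of those with high stress response is high-high 3, whose array had the lowest correlation with the others. Without high-high 3 and high-low 3 the difference for SOD2 was -0.66, and the difference for SOD1 was 0.19 after quantile normalization and 0.28 after median centring.

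CAT (NCBI gene 397568), the peroxisomal enzyme that splits hydrogen peroxide, had 32950, 34320 and 27690 in high-high livers and 31340, 29450 and 30470 in high-low livers. It had 33050, 32050 and 36460 in low-high livers and 32200, 31860 and 31630 in low-low livers. The high-low animals all lay below the low-low animals, which spanned only 31630 to 32200, but the log2 fold change there was -0.07 ± 0.15. Over all animals the stress response difference was -0.08 ± 0.10, with a 95% interval of -0.31 to 0.14. CAT varied by 7.01% (coefficient of variation over 12 animals), the least of the 10 probe sets.

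PRDX6 (NCBI gene 399538), the peroxiredoxin with a single active cysteine that also acts on oxidised phospholipids, varied far more, by 32.4%. It had 11570, 19110 and 6868 in high-high livers and 9178, 15380 and 9626 in high-low livers. It had 19770, 15850 and 11510 in low-high livers and 11230, 17320 and 19980 in low-low livers. The 4 females, at 6868, 9178, 11510 and 11230, all lay in the lower part of the range, and the groups overlapped for stress response. Animals with high stress response averaged 11960 ± 4520 and those with low stress response 15940 ± 3860 (SD, n = 6 each), which is a log2 difference of -0.46 ± 0.17. The limma unadjusted p was 0.0213 and the adjusted p 0.57. An exact permutation test gave p = 0.102, and 0.437 over the 30 tests. Without high-high 3 and high-low 3 the log2 fold change was -0.28.

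In rising order the group means of PRDX6 were 11390 ± 3460 in high-low, 12520 ± 6180 in high-high, 15710 ± 4130 in low-high and 16180 ± 4480 in low-low livers (SD, n = 3 each), and no neighbouring pair differed beyond the SD. Within males the signals overlapped, at 9626 to 19110 with high and 15850 to 19980 with low stress response. Within females those with high stress response, 6868 and 9178, lay below those with low stress response, 11510 and 11230. Females, with 2 animals per level, were also apart for MT1A and SOD2 (higher) and for SOD1, CAT and the second TXN probe set (lower). The share of all probe sets apart in females alone was not counted, so no weight is put on these separations.

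Sex was the comparison in which PRDX6 had its smallest p. Males averaged 16080 ± 3820 (n = 8) and females 9697 ± 2150 (SD, n = 4), and 7 of 8 males lay above the female median. The log2 fold change, males over females, was 0.72 ± 0.18 or 1.64-fold, with an unadjusted p of 0.00224 and a limma adjusted p of 0.713. The exact permutation p, two-sided, was 0.0162, and 0.208 over the 30 tests. SOD2 had -0.50 ± 0.21 (limma unadjusted p = 0.0357, adjusted p = 0.933), with males at 1979 to 3003 and females at 2387 to 5678. The exact permutation p of SOD2 was 0.0848, and 0.424 over the 30 tests. Without high-high 3 the SOD2 value was -0.28, and without high-high 3 and high-low 3 it was -0.22, no longer under the unadjusted threshold in either case. PRDX6 and SOD2 were the 2 of 10 members counted at the unadjusted threshold for sex, against 5.21% of all probe sets, while 0.0688% of all probe sets, and no member, passed after adjustment. All 11 measured hepatocyte markers lay below 0 for males over females, with a median of -0.15 beside -0.04 over all probe sets, and their part in these values was not tested.

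**Figure D3:**
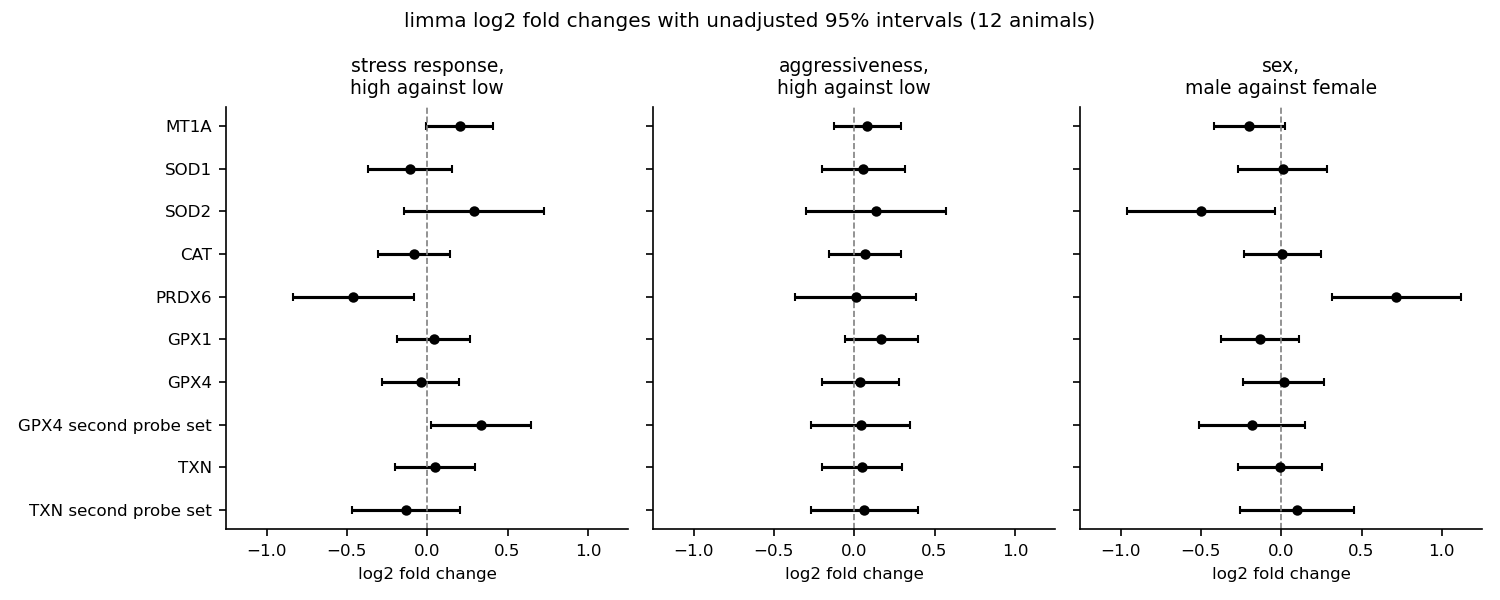
Log2 fold changes of the 10 member probe sets from limma for high against low stress response, high against low aggressiveness and males against females, with unadjusted 95% intervals from 12 animals. Intervals exclude 0 for PRDX6 and the second GPX4 probe set in stress response and for PRDX6 and SOD2 in sex, and for none in aggressiveness. None of these passed adjustment over all probe sets.

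GPX1 (NCBI gene 397403), the cytosolic selenium-dependent glutathione peroxidase, had 31170, 33070 and 32890 in high-high livers and 29540, 30300 and 27210 in high-low livers. It had 32740, 27870 and 34730 in low-high livers and 31490, 28380 and 24580 in low-low livers. The high-high animals all lay above the high-low animals, whereas the low-high and low-low animals overlapped. Animals with high aggressiveness averaged 32080 ± 2350 and those with low aggressiveness 28580 ± 2460 (SD, n = 6 each), which is a log2 difference of 0.17 ± 0.10 with a limma adjusted p of 1. The limma unadjusted p was 0.133, whereas the exact permutation p, two-sided, was 0.0346 and reached 0.208 over the 30 tests. For stress response the difference was 0.04 ± 0.10.

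GPX4 (NCBI gene 399537), which reduces lipid peroxides within membranes, was read by 2 probe sets that did not follow each other, with r = -0.433 between them over 12 animals. The brighter one ranged between 7787 and 9524 with high and between 7988 and 10060 with low stress response, giving a log2 fold change of -0.04 ± 0.11. The second had 221, 182.1 and 219.7 in high-high livers and 175.3, 179.3 and 219.8 in high-low livers. It had 111.2, 172.6 and 182.7 in low-high livers and 191.9, 150.7 and 130.5 in low-low livers. The low-high and low-low animals mostly had the smaller values, with overlap. In males the levels of stress response were apart, but in females they overlapped. The share of all probe sets apart in males alone was not counted. Its log2 fold change for stress response was 0.34 ± 0.14, with an unadjusted p of 0.036 and a limma adjusted p of 0.58. Since the brighter probe set gave a value near 0, no direction is given for GPX4, and the mean over both probe sets gave 0.15.

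TXN (NCBI gene 397581), the cytosolic thioredoxin, likewise had a bright and a dim probe set, which correlated at r = 0.391. The bright one ranged between 12180 and 16380 with high and between 12470 and 14890 with low stress response, giving a log2 fold change of 0.05 ± 0.11. In low-high livers it had 14890, 13870 and 14000, all above the 13780, 12590 and 12470 of low-low livers. The dim one ranged between 351.8 and 606.7 with high and between 421.1 and 575.4 with low stress response, giving a log2 fold change of -0.13 ± 0.15. Its lowest values, 351.8 and 384, were those of the females with high stress response, and its females with low stress response had 575.4 and 554.2.

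Differences by aggressiveness were small. All 10 probe sets lay above 0 for high against low aggressiveness, between 0.01 for PRDX6 and 0.17 for GPX1, and the median of the 8 genes was 0.06 beside 0.01 over all probe sets. At the unadjusted threshold 0 of 10 members were counted, against 3.22% of all probe sets, and 0% of all probe sets passed after adjustment. These directions depended on the scaling for PRDX6, which lay below 0 after quantile normalization (-0.01) and median centring (-0.01), and for MT1A, at -0.04 after quantile normalization. The 11 measured hepatocyte markers also all lay above 0 for aggressiveness, with a median of 0.13, and their summed signal was 391200 to 562800 with high and 362200 to 480100 with low aggressiveness. The log2 ratio of 3' to 5' signal of controls, a sign of RNA quality, was apart by aggressiveness for EF1A but not for GAPDH or actin. With high and low aggressiveness GAPDH had 0.83 ± 0.16 and 0.785 ± 0.12, and actin 5.1 ± 0.243 and 5.07 ± 0.332, with overlap. The mean of the control ratios, 2.28 ± 0.105 and 2.19 ± 0.119, overlapped too. The EF1A ratio was 0.892 ± 0.0878 with high and 0.721 ± 0.0257 with low aggressiveness (SD, n = 6 each) without overlap. Its exact permutation p was 0.00216, the smallest possible, and 0.0259 over 12 such tests. With this ratio as a covariate, the aggressiveness difference was -0.06 for CAT and -0.14 for the second GPX4 probe set, but 0.24 for GPX4, 0.25 for TXN, 0.31 for SOD2 and 0.19 for PRDX6, and the median of the 8 genes was 0.14. This fit was not planned, and since the ratio was apart by aggressiveness it cannot well separate the ratio from aggressiveness. Without the covariate the median was 0.02 after quantile normalization. The part of these values in the members' differences was otherwise not tested.

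Within each level of stress response, aggressiveness separated few members. In animals with high stress response GPX1 was the 1 of 10 whose groups did not overlap, against 7.54% of all probe sets, and 0 of 10 were counted at the unadjusted threshold, against 3.63%, with 0.0125% of all probe sets and no member passing after adjustment. In animals with low stress response SOD2, with the low-high animals below, and TXN, with the low-high animals above, made 2 of 10, against 7.73%. There 0 of 10 were counted at the unadjusted threshold, against 3.19%, and 0% passed after adjustment. A test for any difference among the 4 groups counted 0 of 10 members at the unadjusted threshold, against 4.69% of all probe sets, and 0% passed after adjustment. The comparisons within levels share animals, so their values are not independent of each other.

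**Figure D4:**
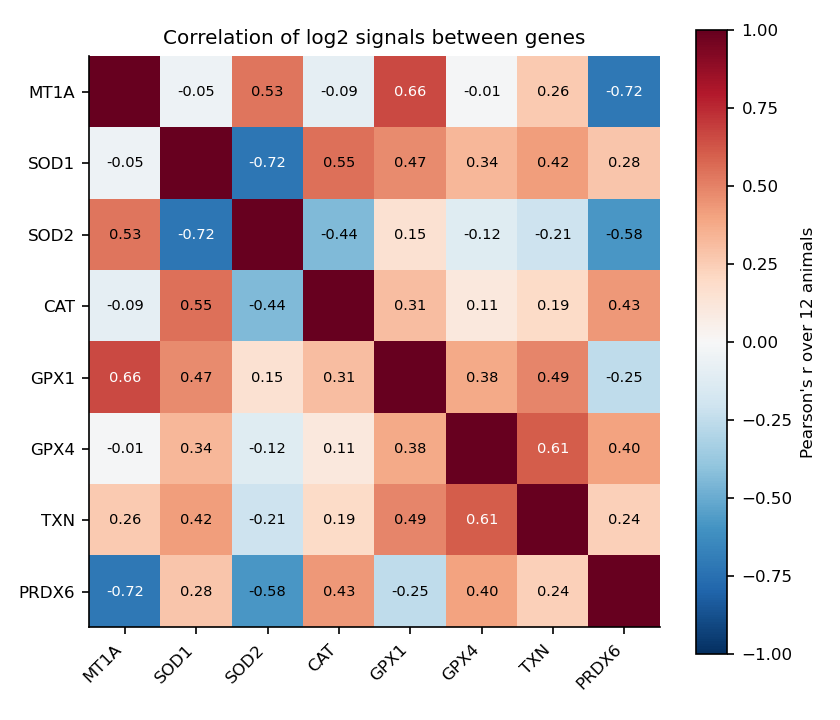
Pearson correlation of log2(signal + 16) between the 8 genes over 12 animals, from -1 in blue to 1 in red, with the value in each square. The lowest values join SOD1 with SOD2 (-0.72) and MT1A with PRDX6 (-0.72), and the highest joins MT1A with GPX1 (0.66).

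Between members the signals followed each other only in part. Of the 28 pairs of genes, 18 had a positive correlation over the 12 animals, and 4 had an unadjusted permutation p under 0.05, while none passed adjustment over the 28. SOD1 and SOD2 gave r = -0.725 and rho = -0.664 (permutation p = 0.006 and 0.0214, adjusted 0.113 and 0.292). The r was -0.452 without high-high 3 and high-low 1, the animals farthest from the median of SOD1, and -0.649 in the 8 males. MT1A and PRDX6 gave r = -0.718 and rho = -0.699 (permutation p = 0.00804 and 0.0148, adjusted 0.113 and 0.292), with -0.62 without the 2 animals farthest from the median of MT1A and -0.444 in males. After the group means and sex were taken out, SOD1 and SOD2 gave -0.934 and MT1A and PRDX6 0.205. Other pairs differed in this step too: MT1A and SOD1 gave 0.852 (r = -0.0486 before it), MT1A and SOD2 -0.839 (0.532 before), and TXN and PRDX6 0.819 (0.242 before). In the 8 males, without this step, these pairs gave 0.336, 0.0701 and 0.367. They are among the largest of the 28 after this step, which leaves 7 degrees of freedom, and no p was computed after it. MT1A and GPX1 gave r = 0.657 and rho = 0.58 (permutation p = 0.0231 and 0.0522, adjusted 0.216 and 0.292), with 0.378 without the 2 farthest animals and 0.616 after group means and sex were taken out. GPX4 and TXN gave r = 0.606 and rho = 0.587 (permutation p = 0.0355 and 0.0493, adjusted 0.242 and 0.292), with 0.539 without the 2 farthest and 0.708 after group means and sex were taken out.

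Among 5802 other genes with a single symbol, the log2 signals most like that of MT1A over the 12 animals were those of ATF4 (r = 0.879), B4GALT1 and UTP4 (0.829 each), UBE2F (0.826) and ALG2 (0.825). ATF4 is a transcription factor of the integrated stress response, and B4GALT1 and ALG2 are glycosylation enzymes. PRDX6 was most like SUOX, the sulfite oxidase (0.974), and HSD17B10, a mitochondrial dehydrogenase (0.952). SOD2 was most like MARK3, a kinase (0.955), and KPNA2, a nuclear import adaptor (0.902), with 0.902 and 0.89 without high-high 3 and high-low 3. SOD1 was nearest to PSMB5, a proteasome subunit (0.912), and DHRS1 (0.908), and CAT to PIGQ (0.908) and UABP-2 (0.902). GPX1 was nearest to CHTF18 (0.881) and RAB3D (0.856), GPX4 to an unnamed locus (0.883) and PPFIBP2 (0.875), and TXN to HGH1 (0.868) and the copper chaperone ATOX1 (0.825). These are the highest of many correlations and are a description, with no test.

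The rest of metal handling and antioxidant defence was read from 7 lists, in which 0 genes passed after adjustment for stress response or aggressiveness. Of all 15999 probe sets, 55.7% lay above 0 for stress response and 52% for aggressiveness, with medians of 0.03 and 0.01. The list counts below stand beside these shares. Of 7 measured genes of metallothionein and zinc handling, 6 lay above 0 for stress response, with a median of 0.18. SLC39A14, a transporter that brings zinc and iron into hepatocytes, had 1100 ± 556 with high and 572.6 ± 97.2 with low stress response (SD, n = 6 each), which is a log2 difference of 0.82 ± 0.21 with a limma adjusted p of 0.523. SLC39A4, another zinc importer, had -0.25 ± 0.17. For aggressiveness 5 of 7 lay above 0, and the smallest p values were those of SLC39A14 (0.47 ± 0.21), MT3 (-0.55 ± 0.37) and SLC39A4 (0.23 ± 0.17).

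Of 10 measured genes that remove superoxide and hydrogen peroxide, 4 lay above 0 and 6 below for stress response, with a median of -0.05. Beside PRDX6 and SOD2, the smallest p was that of PRDX3, the mitochondrial peroxiredoxin, at -0.16 ± 0.12. For aggressiveness 7 lay above 0, and CCS, the copper chaperone of SOD1, had -0.17 ± 0.15 and PRDX1 -0.13 ± 0.11. In the thioredoxin and glutaredoxin system 8 of 14 lay above 0 for stress response, with GLRX2 at 0.35 ± 0.14, GLRX5 at -0.33 ± 0.19 and TXNRD3 at -0.28 ± 0.19. For aggressiveness 10 of 14 lay above 0, with GLRX3 at 0.14 ± 0.10, MSRB3 at 0.23 ± 0.18 and GLRX2 at 0.13 ± 0.14. MSRB3 was dim, averaging 71.7 with high and 58.76 with low aggressiveness.

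Among 12 measured genes of glutathione peroxidases and synthesis, 4 lay above 0 and 8 below for stress response. CTH, which makes cysteine from cystathionine, had 13610 ± 2110 with high and 10210 ± 3350 with low stress response (SD, n = 6 each), which is a log2 difference of 0.47 ± 0.15 with a limma adjusted p of 0.523. GPX3, the plasma glutathione peroxidase, had -0.31 ± 0.12 and GPX7 had 0.55 ± 0.26. GPX7 was dim, averaging 76.94 with high and 51.04 with low stress response. For aggressiveness 8 of 12 lay above 0, with GPX5 at 0.53 ± 0.18, GPX2 at 0.47 ± 0.24 and GPX3 at 0.23 ± 0.12. GPX5 averaged 53.57 with high and 33.4 with low aggressiveness, near the lowest mean tested, 40.58. GPX2 was also dim, at 127.3 and 89.45. Of 11 measured genes of the NRF2 pathway, the main transcriptional route to antioxidant enzymes, 5 lay above 0 for stress response and 7 for aggressiveness. TKT had -0.37 ± 0.17, GCLC, which starts glutathione synthesis, -0.42 ± 0.22, and TXNRD1 0.18 ± 0.13 for stress response, while FTL had 0.20 ± 0.13, GCLC 0.32 ± 0.22 and NQO1 -0.19 ± 0.20 for aggressiveness.

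**Figure D5:**
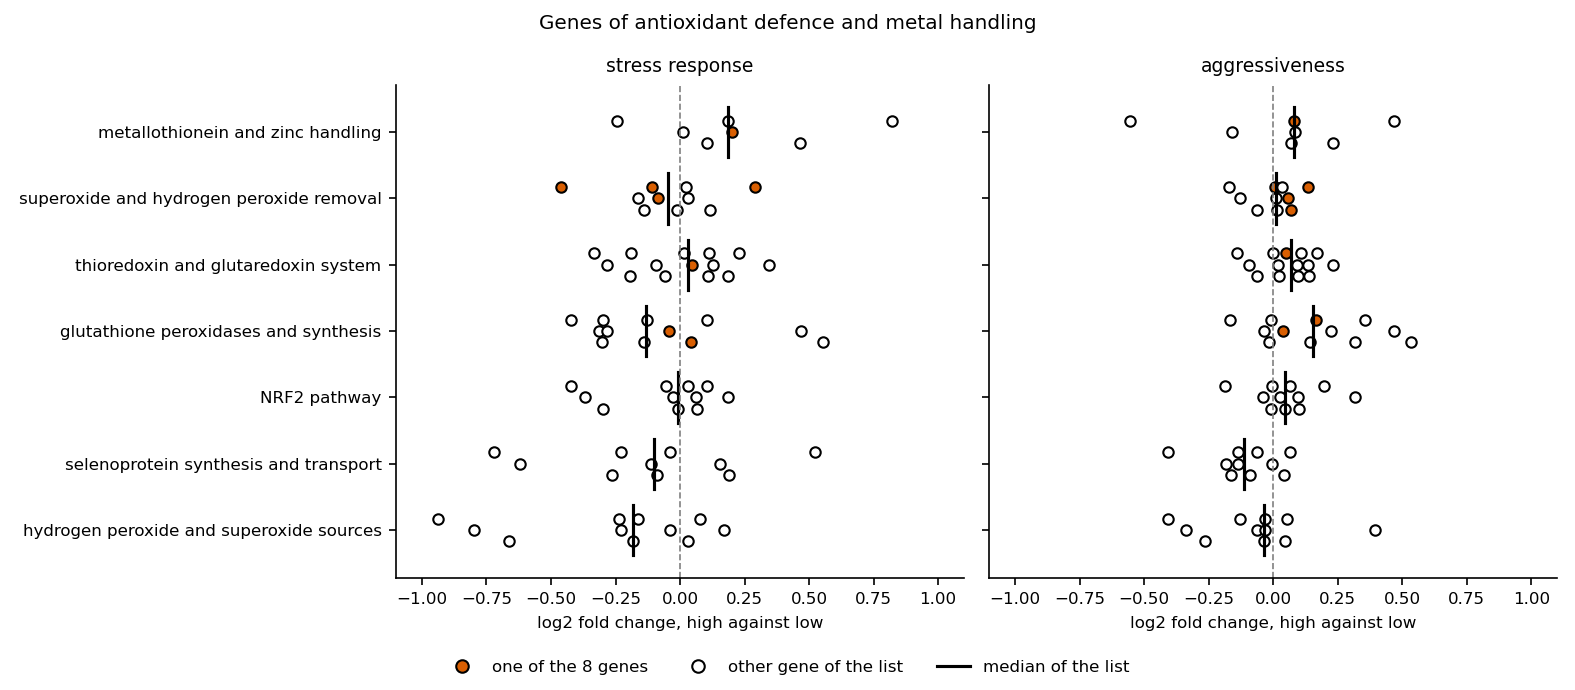
Log2 fold changes for high against low stress response and aggressiveness of the measured genes in 7 lists of antioxidant defence and metal handling. Each circle is a gene, filled circles are among the 8 genes, and a bar marks the median of the list. The widest spread below 0 for stress response is in the sources of hydrogen peroxide and superoxide (DDO at -0.94), and SLC39A14 lies at 0.82.

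Selenoproteins hold selenocysteine, as GPX1 and GPX4 do. Of 10 measured genes of selenoprotein synthesis and transport, 3 lay above 0 and 7 below for stress response. SELENOS, a selenoprotein of the endoplasmic reticulum, had 4876 ± 1020 with high and 3369 ± 528 with low stress response (SD, n = 6 each), which is a log2 difference of 0.52 ± 0.14 with a limma adjusted p of 0.523. SELENBP1 had -0.62 ± 0.19 and DIO1, the deiodinase, -0.72 ± 0.34. For aggressiveness 2 of 10 lay above 0, with SELENOP, the selenium carrier of plasma, at -0.13 ± 0.11, SELENOF at -0.14 ± 0.12 and SELENOM at -0.41 ± 0.35.

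Enzymes that make hydrogen peroxide or superoxide supply the substrates of these defences. Of 11 measured, 3 lay above 0 and 8 below for stress response, with a median of -0.18. DDO, which oxidises D-aspartate in peroxisomes, had 354 ± 69.3 with high and 742.8 ± 333 with low stress response (SD, n = 6 each), which is a log2 difference of -0.94 ± 0.26 with a limma adjusted p of 0.523. UOX, the urate oxidase, had -0.66 ± 0.20 and HAO1, the hydroxyacid oxidase of peroxisomes, -0.80 ± 0.31. For aggressiveness 3 of 11 lay above 0, with NCF4, a subunit of the phagocyte oxidase, at 0.39 ± 0.11, DDO at -0.41 ± 0.26 and NCF1 at -0.26 ± 0.18.

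Markers of other cell types stood beside these values. Of 8 measured Kupffer cell markers, 3 lay above 0 for stress response, with CD163 at 0.57 ± 0.18 and MARCO at -0.78 ± 0.25, and their summed signal was 29670 to 38390 with high and 28470 to 36510 with low stress response. Of 4 measured markers of neutrophils and lymphocytes, 4 lay above 0, with sums of 269.9 to 546.7 with high and 263 to 822.2 with low stress response. With high against low stress response the sums were 1696 to 4223 against 1252 to 3290 for 4 erythroid markers, and 4862 to 5556 against 5144 to 6117 for 6 endothelial markers. They were 5027 to 10480 against 4163 to 8839 for 7 stellate cell markers, and 4888 to 15520 against 3900 to 7784 for 5 cholangiocyte markers. Of the cholangiocyte markers 2 lay above 0 and 3 below, with a median of -0.20, and with KRT18, which hepatocytes also express, at 0.98 ± 0.28 and PROM1 at -1.07 ± 0.34. These sums overlapped between the levels in every list, no marker passed after adjustment, and their part in the members' values was not tested.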

How the data were processed

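The authors deposited a linear intensity for each probe set, made with GCOS 1.1.1 per the submitters' processing notes. The summary of probes and the scaling are not given in the sources used here, and the signals of all 12 arrays were taken unchanged. Leaving out 124 controls of 24123 probe sets and the dimmest 33.3% of the other 23999 gave 15999 with a mean of at least 40.58. Symbols came from the array's annotation table (10099 probe sets with 1 symbol, 198 with several, 13826 with none). A gene in a list was its tested probe set with the highest mean.

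The model of log2(signal + 16), fitted with limma 3.58.1 (R 4.3.3), held sex, aggressiveness and stress response, and in another fit the interaction of both traits. The threshold was an adjusted p of 0.05 (Benjamini-Hochberg). The fit was tested on simulated data. The fit with stress response by sex was added after the values were seen, and the EF1A covariate was also not planned. Single values were compared with exact permutation tests, and correlations used 100000 permutations in SciPy 1.17.1. Figures used matplotlib 3.10.9 in Python 3.11.15.

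Named were all members, for each list the 3 genes with the smallest p per factor, and the genes most correlated with each member, 5 for MT1A and 2 for the others. MT-2B, the probe set shared by MT1A and MT3, and cell type markers were named outside that rule. The members and lists were chosen with earlier results of these data known. No sequences are shown. Alternatives were other models, filters, scalings, added constants, array weights, males only, RNA quality covariates, probe set means and each animal left out.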

Additional observations from a re-analysis of the deposited data

Results flagged for a closer look

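In 60 groups of animals (10 probe sets at each level of stress response, aggressiveness and sex), 4 values lay far from the rest of their group by Dixon's test, where chance flags about 1 in 20. SOD2 of high-high 3, a female whose array had the lowest median correlation with the others, was 5678 among the animals with high aggressiveness, with the next value at 2994. CAT of low-high 3, also a female, was 36460 among those with low stress response, with the next at 33050. The second GPX4 probe set had its lowest value among animals with high aggressiveness in low-high 1, a male, at 111.2, with the next at 172.6. The second TXN probe set had its lowest value among animals with high aggressiveness in high-high 3, at 351.8, with the next at 489.9.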

How the results depend on the processing

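Leaving out animals, changing the scaling, the filter, the constant or the variance estimate, and adding RNA quality made no member probe set pass after adjustment in any of the 25 to 28 fits of each comparison, the main one included, where the smallest adjusted p was 0.211, for sex. MT1A kept its direction for stress response, from 0.158 to 0.249 over 28 alternatives, and PRDX6 kept its own for stress response and for sex. Counts of probe sets past the threshold differed between settings. Aggressiveness at high stress response had 2, against 0 without sex, without the filter, with the lowest 50% left out, with a constant of 64, with trend and robust variance, in males only, without high-high 3 and high-low 3 (both arrays), with either 3' to 5' covariate and with probe set means, and 1 after quantile normalization and median centring. Sex had 11, against 7 with the lowest 50% left out. Counts that were 0 became 2 for stress response at high aggressiveness with a constant of 1 or array weights, 1 for stress response at low aggressiveness with array weights or the 3' to 5' covariate, 2 for the interaction without both arrays, and 1 for stress response by sex with the lowest 50% left out, median centring, a constant of 64 or trend and robust variance. The median of the 8 genes was -0.01 for the interaction, against 0.0787 after quantile normalization, and 0.05 for aggressiveness at high stress response, against 0.1551 in males only.

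Some values, not all of them near 0, changed sign, and the cause was not tested. For aggressiveness, PRDX6 was -0.0139 after quantile normalization, -0.0102 after median centring, -0.0149 with array weights, -0.0309 without both arrays and -0.0133 with the 3' to 5' covariate, as was the second TXN probe set there. MT1A was -0.0366 after quantile normalization, SOD2 -0.0944 without both arrays, beside 0.14 with all animals, and CAT -0.0567 and the second GPX4 probe set -0.1406 with the EF1A covariate. For stress response, GPX1 was -0.003 after median centring. In males only, SOD1 was 0.0436 (-0.11 in both sexes), SOD2 -0.0431 (0.29 in both) and the second TXN probe set 0.0988 (-0.13 in both). GPX4 was 0.0027 without both arrays, and with probe set means GPX4 was 0.147 and TXN -0.0427. For the interaction, PRDX6 was -0.0278 with array weights.

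Leaving out each animal gave -0.1124 to 0.0781 for PRDX6, -0.0077 to 0.2654 for SOD2, -0.0365 to 0.1289 for the second GPX4 and -0.0015 to 0.1572 for the second TXN probe set in aggressiveness, and -0.1736 to 0.2658 for PRDX6 in the interaction. Medians ran from -0.0518 to 0.0682 for stress response at low and from -0.1349 to 0.0168 at high aggressiveness, and from -0.0199 to 0.1713 for aggressiveness at high stress response. Counts ran from 0 to 1 for stress response, for the interaction and for stress response at high aggressiveness, from 0 to 2 for aggressiveness at high stress response, and from 0 to 5 for stress response by sex, the 5 without high-low 1.

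No paired analysis was possible because replicate numbers were given in accession order and pair no animals. In that order all animals with low stress response come before all those with high stress response. If the arrays were run in that order, an effect of the order could not be told apart from stress response. Each group held 3 animals, and the 4 females were split 2 and 2 by stress response.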
